A study of Mus musculus with 24 samples.

Results

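The 8 nuclear receptor genes described here were Esr1, Nr3c1, Esrra, Nr5a2, Nr6a1, Nr2f1, Nr2f2 and Nr2f6, taken by symbol from a table of 51912 mouse genes. Their RNA was measured by RNA-seq in 9 libraries, 3 in each of 3 groups, within a series of 24 samples that mainly asked which transcription factors change DNA methylation at their binding sites. The first group was TC-1 embryonic stem cells (ESCs), wild type and C57BL/6 X 129S5, kept in medium with leukaemia inhibitory factor. The second was neuronal progenitors (NPs), wild type and of the same strain, made from ESCs through cell aggregates with retinoic acid. The third was TET TKO, embryonic stem cells with TET1/2/3 triple knockout on a C57BL/6 X 129/sv background. The knockout therefore differed from ESCs in genotype and strain together, and these cannot be told apart, and its libraries were also sequenced more deeply. The study's methods call the RNA-seq replicates biological but do not say which cultures they came from, so p-values measure the spread between these libraries. For estrogen and glucocorticoid receptor motifs, DNA methylation was also taken from 5 pools of cells carrying an inserted fragment. Its plasmids were treated with the methyltransferase M.SssI before transfection or left untreated for ESCs and NPs, and were treated for TET TKO.

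Nuclear receptors are transcription factors with a DNA-binding domain made of zinc fingers and a pocket that, in many members, binds a small lipophilic ligand such as a steroid or a retinoid. Ligand binding exchanges corepressors for coactivators, while orphan members act without a known natural ligand. Most members bind copies of a short half-site, AGGTCA, alone or as repeats, whereas the glucocorticoid receptor prefers a different half-site. In the early embryo, Nr5a2 (LRH-1) supports expression of the pluripotency factor gene Pou5f1, Nr6a1 (GCNF) represses it on differentiation, and the COUP-TF genes Nr2f1 and Nr2f2 are known for their roles in neural patterning.

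ESC and NP libraries held between 20519702 and 23976914 counts assigned to genes, and TET TKO libraries between 80704741 and 93210102. Levels are given as RPKM (reads scaled by gene length and by TMM-scaled library size), so that genes of different length can be compared. The 8 marker genes of pluripotent cells summed to between 2473 and 2578 RPKM in ESCs, to between 2367 and 3074 in TET TKO and to between 6.27 and 30.1 in NPs. All 8 neural progenitor markers reached 1 RPKM in NPs, with sums from 150 to 253 RPKM against 4.64 to 5.59 in ESCs. Sums of the 6 neuron markers overlapped between these groups, at 77.6 to 185 RPKM in NPs and 121 to 137 in ESCs. Markers of mesenchyme and neural crest summed to between 6.54 and 42.3 RPKM in NPs and 2.79 to 3.56 in ESCs. Those of endoderm summed to between 19.8 and 24.8 against 2.66 to 3.93. Among them, Hnf4a was lower in NPs, at 0.152 to 0.281 RPKM against 1.46 to 1.99 in ESCs. No marker of these lists was at 0 in all 3 libraries of a group. In bulk RNA, fewer cells of a type and less RNA per cell cannot be told apart. In TET TKO, the targeted genes Tet1 (log2 fold change −2.38, adjusted p = 7.019e-05) and Tet2 (−3.05, adjusted p = 1.87e-05) were lower than in ESCs, while Tet3 stayed under 1 RPKM in both groups and had no test. Whether the remaining Tet1 and Tet2 reads fall outside the deleted parts was not tested.

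Upstream sequences are shown for the called genes with a RefSeq window fully or almost fully outside the Ensembl exons. They were chosen because the study is about CpG methylation and these genes moved most. Only the first window of each gene is printed, without bases in those exons. The second Nr5a2 window, with 6 CpGs and 0 copies of AGGTCA, also lay outside the exons and is not shown. RefSeq windows of 250 bases before the start site (build GRCm38.p6) matched 7 of the 8 genes, with 11 windows in all. Capitals mark CpG dinucleotides and the half-site AGGTCA on either strand, and each sequence runs 5′ to 3′ on the gene's own strand, which is the minus strand for all 3. The Nr5a2 sequence spans chr1:136960449-136960698, the Nr2f2 sequence chr7:70366747-70366996 and the Nr2f6 sequence chr8:71381961-71382202.
Nr5a2: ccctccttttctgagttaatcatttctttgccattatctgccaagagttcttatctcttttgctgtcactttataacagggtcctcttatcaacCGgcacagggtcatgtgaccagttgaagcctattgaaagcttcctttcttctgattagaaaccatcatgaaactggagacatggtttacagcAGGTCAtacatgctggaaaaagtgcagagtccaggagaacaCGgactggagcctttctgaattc
Nr2f2: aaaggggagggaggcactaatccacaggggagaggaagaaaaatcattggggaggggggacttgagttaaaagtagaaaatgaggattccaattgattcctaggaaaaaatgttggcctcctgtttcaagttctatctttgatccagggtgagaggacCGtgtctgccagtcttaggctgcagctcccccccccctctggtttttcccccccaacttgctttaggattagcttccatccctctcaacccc
Nr2f6: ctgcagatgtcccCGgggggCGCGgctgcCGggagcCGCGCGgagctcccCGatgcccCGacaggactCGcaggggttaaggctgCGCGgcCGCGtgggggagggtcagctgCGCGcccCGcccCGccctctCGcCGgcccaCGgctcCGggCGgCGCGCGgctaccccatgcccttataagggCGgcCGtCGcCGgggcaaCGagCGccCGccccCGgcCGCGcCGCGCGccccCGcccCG

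The 3 sequences differed in CpG content. In the full window of 250 bases, Nr6a1 had 4 and 7 CpGs in its 2 windows, Nr5a2 had 2 and 6, and Nr2f2 had 1, beside a median of 6 over 32851 windows. Nr2f6 had 42 CpGs, and 99.1% of windows had fewer. Esrra and the first Nr2f1 window had 22 each, and 85.2% of windows had fewer. The second Nr2f1 window had 2, and both lay inside Ensembl exons and are not shown. The half-site AGGTCA, searched on both strands, was present in 2 of the 11 windows (the Nr5a2 window above, and the second window of Nr6a1 with 2 copies), and 14.0% of all windows held at least 1. Direct repeats of AGGTCA with spacers of 0 to 5 bases were found in 0 of the 11 windows and, depending on the spacer, in 0.00609% to 0.0335% of all windows. Windows of the 3 genes that rose in NPs thus ran from 1 CpG (Nr2f2) over 2 and 22 (Nr2f1) to 42 (Nr2f6).

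The receptor genes with the highest levels differed between ESCs and NPs. With high expression taken as a mean log2(1 + RPKM) of at least 1, ESCs highly expressed 5 of the 8 genes, NPs 6 and TET TKO 5. In ESCs the order of mean levels was Nr5a2, Esrra, Nr6a1, Nr3c1, Nr2f6, with Nr2f1, Nr2f2 and Esr1 near 0. Libraries of Esrra and Nr6a1 overlapped there, as did those of the 3 lowest genes, while every other neighbouring pair was separated. In NPs the order was Nr2f1, Nr2f6, Esrra, Nr2f2, Nr6a1, Nr3c1, Nr5a2, Esr1, and among neighbours the ranges overlapped for Esrra and Nr2f2 alone. TET TKO had the order Nr5a2, Nr6a1, Esrra, Nr2f6, Nr3c1, Nr2f2, Nr2f1, Esr1, with overlaps between Nr5a2 and Nr6a1, between Esrra and Nr2f6, and among the last 3. Nr2f6 shares 54.4% of its exon bases with Ocel1, and by the counting default described below, reads there are given to neither gene. Divided by its unshared bases alone, an alternative added after seeing the data, Nr2f6 had a mean of 6.47 RPKM in ESCs, between Nr6a1 and Nr3c1. It then had 43.4 RPKM in NPs, overlapping with Nr2f1, and 12.9 in TET TKO, overlapping with Nr5a2 and Nr6a1.

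**Figure D1:**
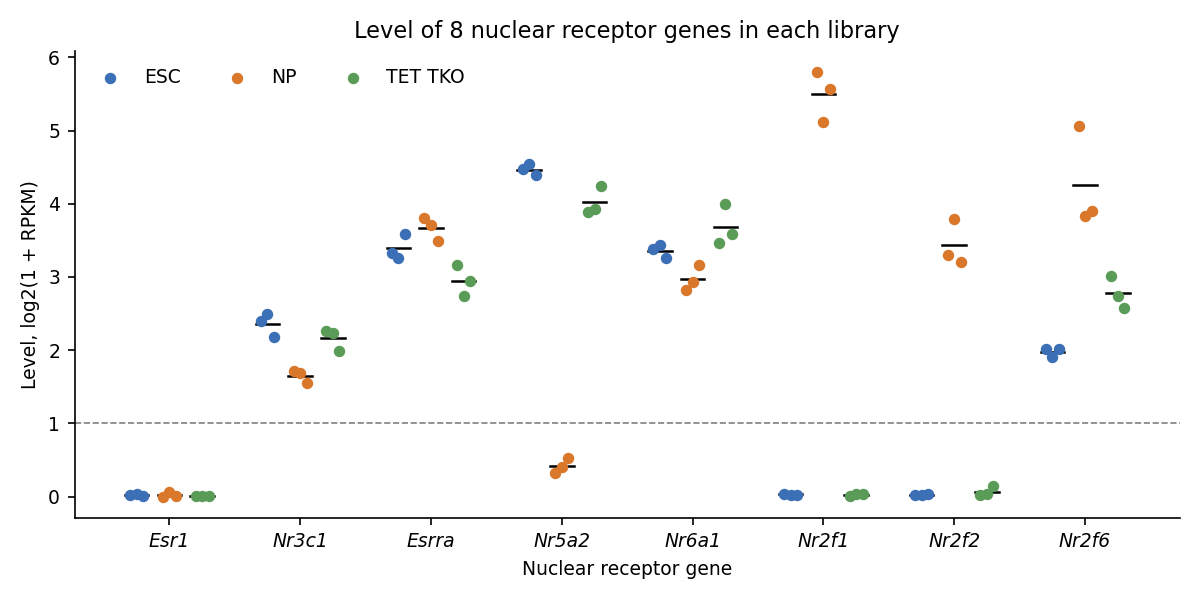
Level of each gene, as log2(1 + RPKM), in the 3 ESC (blue), 3 NP (orange) and 3 TET TKO (green) libraries, with black bars at group means and a dashed line at the limit of 1 for high expression. Nr2f1 and Nr2f2 lie near 0 in every ESC and TET TKO library and above the line in every NP library, Nr5a2 is above it in ESCs and TET TKO and below it in NPs, and Esr1 is near 0 in all 9.

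To ask which of these genes changed on differentiation, NPs were compared with ESCs. The 3 COUP-TF genes rose, Nr5a2 fell, and Esrra, Nr3c1 and Nr6a1 were not called. A gene was tested if it reached 1 RPKM in at least 1 library of the 2 groups, and called where its Benjamini-Hochberg adjusted p was under 0.001 and it changed at least 3-fold. Of the 7 members tested, 4 were called, 3 higher and 1 lower. Over all 15197 genes tested, 22.3% were called, 12.4% higher and 9.98% lower. RPKM ranges of the 2 groups did not overlap for 6 of the 7 members, and for 71.9% of all genes tested. The median log2 fold change was 0.29 over the tested members and 0.03 over all genes tested.

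**Figure D2:**
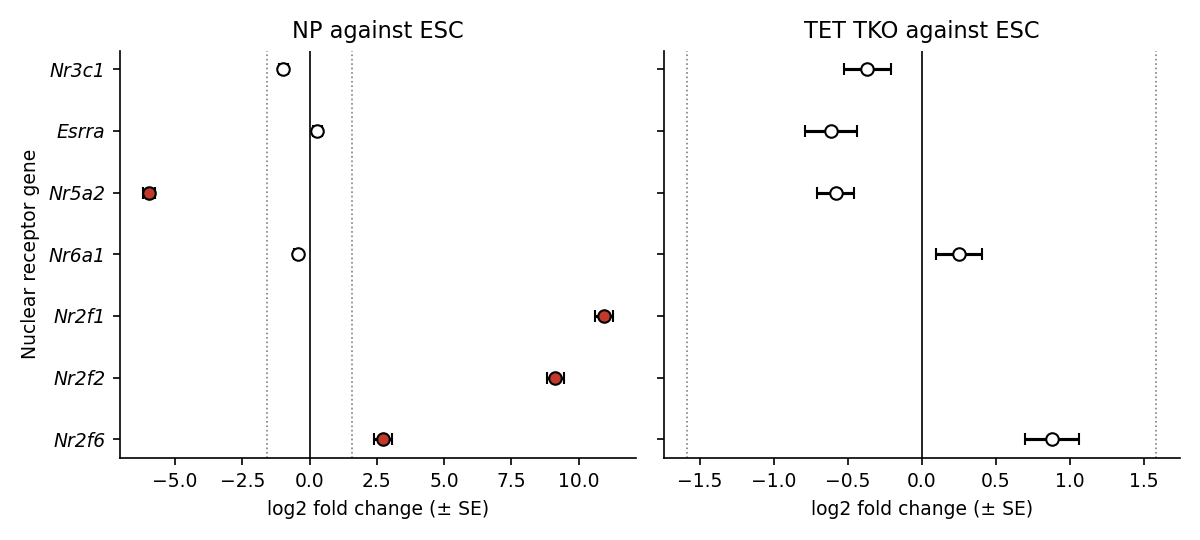
log2 fold change with its standard error for each member tested in NPs against ESCs (left, 7 genes) and TET TKO against ESCs (right, 5 genes), with filled points for genes called, dotted lines at a fold change of 3 and different horizontal scales. Nr2f1, Nr2f2 and Nr2f6 are called higher and Nr5a2 lower in NPs, and no gene is called in TET TKO.

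Nr2f1 (COUP-TFI), an orphan receptor that patterns the neural tube and cortex, had the largest change among the members. It had 3, 2 and 2 counts in the ESC libraries and 5539, 3888 and 5131 in the NP libraries, or 0.0297, 0.0193 and 0.0171 RPKM against 54.7, 33.7 and 46.6. Every NP library was far above every ESC library, and the spread among NP libraries was small beside that gap. The ratio of depth-scaled counts was 2048, with an exact 95% interval from 994 to 5094 that covers counting error only and is wide because ESCs had 7 counts in all. In the fit, the log2 fold change was 10.93 ± 0.33 (SE, n = 3 per group, adjusted p = 2.991e-07). Nr2f1 (ENSMUSG00000069171) lies on chromosome 13 at 78188973 to 78199757 (GRCm38, minus strand), and 123 bases of its exons, or 2.59%, are shared with the gene A830082K12Rik on the opposite strand. That neighbour had 0 counts in every ESC library and 629, 549 and 796 in NPs.

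Nr2f2 (COUP-TFII), a close relative of Nr2f1 that also acts in mesenchyme, in venous endothelium and in interneuron precursors, had 3, 2 and 5 counts in ESCs and 1633, 2696 and 1648 in NPs. Its levels were 0.0163, 0.0106 and 0.0236 RPKM in ESCs and 8.89, 12.9 and 8.25 in NPs, with the second NP library above the other two. The ratio of depth-scaled counts was 588 (exact 95% interval 320 to 1228, counting error only). The log2 fold change was 9.12 ± 0.32 (SE, n = 3 per group, adjusted p = 3.731e-07). The second NP library also had the highest sum of mesenchyme and neural crest markers (42.3 RPKM, against 22.6 and 6.54), whose part in the Nr2f2 level was not tested. Endothelial markers summed to 0.861 to 2.78 RPKM in NPs against 29.7 to 41.5 in ESCs. Of these 5 markers, 2 had a mean of at least 1 RPKM in ESCs and 0 in NPs, and only Pecam1 and Tek were tested. The bearing of this sum on the Nr2f2 level was not tested. The gene (ENSMUSG00000030551) lies on chromosome 7 at 70351944 to 70366735 on the minus strand and shares 643 exon bases (7.46%) with B130024G19Rik on the other strand.

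Nr2f6 (EAR2), the third member of the COUP-TF group, was already present in ESCs. Its levels were 3.06, 2.75 and 3.05 RPKM in ESCs and 32.3, 13.3 and 13.9 in NPs, so that all NP libraries were above all ESC libraries while the first NP library stood apart from the other two. The mean was 6.71 times that of ESCs, and the log2 fold change was 2.73 ± 0.35 (SE, n = 3 per group, adjusted p = 0.0002005). Without the first NP library it was 2.17 and still called. Without any 1 of the ESC libraries the adjusted p rose to between 0.001184 and 0.001774, above the limit. The first NP library also had the highest sum of neural progenitor markers (253 RPKM, against 150 and 201), whose part in the Nr2f6 level was not tested.

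A limit of the Nr2f6 values lies in its position. On chromosome 8 at 71374123 to 71381960 (ENSMUSG00000002393, minus strand), 1622 of the 2983 exon bases (54.4%) are shared with Ocel1 on the opposite strand. Counting ignored strand, and by featureCounts' default a read over exons of both genes is given to neither, so the counts come mostly from the other 1361 bases while RPKM divides by all 2983. Ocel1 had 217, 225 and 254 counts in ESCs, 454, 299 and 435 in NPs and 747, 570 and 544 in TET TKO. Both genes had more counts in NPs. Under that default, reads over the shared bases, from either gene, are missing from both counts. What they would add to the Nr2f6 change was not tested.

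Nr5a2 (LRH-1), an orphan receptor that binds as a monomer and supports the naive pluripotent state, was the highest of the 8 genes in ESCs and nearly off in NPs. Levels were 21.1, 22.2 and 20.03 RPKM in ESCs against 0.247, 0.328 and 0.446 in NPs. ESC libraries lay close together, with an SD of 1.10 RPKM, and no NP library reached 1 RPKM. The mean in ESCs was 62.1 times that in NPs, and the fit gave a log2 fold change of −5.96 ± 0.22 (SE, n = 3 per group, adjusted p = 4.988e-07). Nr5a2 (ENSMUSG00000026398) lies on chromosome 1 at 136842571 to 136960448 on the minus strand.

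Nr6a1 (GCNF), the orphan receptor that represses Pou5f1 when ESCs differentiate, was present in both groups. It had 9.42, 9.85 and 8.60 RPKM in ESCs and 6.10, 6.64 and 7.99 in NPs. Each NP library was below each ESC library, but the difference was small, with a log2 fold change of −0.44 ± 0.14 (SE, n = 3 per group, adjusted p = 0.02111), which missed the limit. Nr5a2 and Nr6a1 thus had means of 0.340 and 6.91 RPKM in NPs after 21.1 and 9.29 in ESCs. Nr6a1 (ENSMUSG00000063972) lies on chromosome 2 at 38723370 to 38927688 on the minus strand.

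Esrra (ERRα), an orphan receptor that works with PGC-1 coactivators on genes of mitochondrial metabolism, had 9.03, 8.60 and 10.99 RPKM in ESCs and 12.995, 12.04 and 10.2 in NPs. The third ESC library lay above the lowest NP library, so the groups overlapped. The log2 fold change was 0.29 ± 0.16 (SE, n = 3 per group, adjusted p = 0.1418). Over the alternative fits it ran from 0.20 to 0.38 with adjusted p from 0.06975 to 0.3856. Esrra (ENSMUSG00000024955) lies on chromosome 19 at 6910977 to 6921813 on the minus strand, and shares 73 exon bases with Trmt112 on the other strand and 91 with Mir6990.

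Of the 2 steroid receptor genes, 1 was near 0 and the other was lower in NPs. Esr1 (ERα), the estrogen receptor, had 4, 7 and 2 counts in ESCs, 0, 15 and 1 in NPs and 3, 6 and 4 in TET TKO, which is at most 0.0452 RPKM. The 0 counts of the first NP library allow a level of up to 0.0103 RPKM, the value of 3 counts there, for counting error only. Esr1 had no test in either comparison. It lies on chromosome 10 at 4611593 to 5005614 on the plus strand (ENSMUSG00000019768).

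Nr3c1 (GR), the glucocorticoid receptor, is held in the cytoplasm by chaperones and enters the nucleus with its ligand. Levels were 4.29, 4.62 and 3.52 RPKM in ESCs and 2.28, 2.22 and 1.92 in NPs, where all libraries were below those of ESCs. The mean in NPs was 0.515 of that in ESCs, with a log2 fold change of −0.97 ± 0.16 (SE, n = 3 per group, adjusted p = 0.0008893). It passed the limit on p but not the fold of 3, and was not called. The p was near its limit, since among 13 alternative fits the adjusted p was under 0.001 in 5 and at most 0.007002 in the others, with the log2 fold change between −1.09 and −0.88. Nr3c1 (ENSMUSG00000024431) lies on chromosome 18 at 39410545 to 39491301 on the minus strand.

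Taking the summed RPKM of the 8 genes as 100%, Nr5a2 made up 43.3% to 46.2% in the ESC libraries and 0.210% to 0.500% in NPs. Nr2f1 made up 41.5% to 52.2% in NPs and at most 0.0631% in ESCs. Nr2f6 took 5.71% to 6.60% in ESCs and 15.5% to 27.5% in NPs, where Nr2f2 took 7.56% to 15.9%. Esrra had 17.9% to 23.8% in ESCs and 11.1% to 14.9% in NPs, although its own level overlapped between the groups. The sum itself was larger in NPs, at 81.1 to 118 RPKM against 46.2 to 48.1 in ESCs. TET TKO libraries had a sum of 42.7 to 44.2 RPKM, with Nr5a2 at 32.1% to 41.1% and Nr6a1 at 23.6% to 33.8%. With Nr2f6 divided by its unshared bases, its own share was 11.7% to 13.4% in ESCs, 28.8% to 45.4% in NPs and 21.9% to 30.3% in TET TKO. The share of Nr5a2 in ESCs was then 40.2% to 43.3% and that of Nr2f1 in NPs 34.8% to 44.0%, so that Nr2f1 was no longer the largest part in every NP library.

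**Figure D3:**
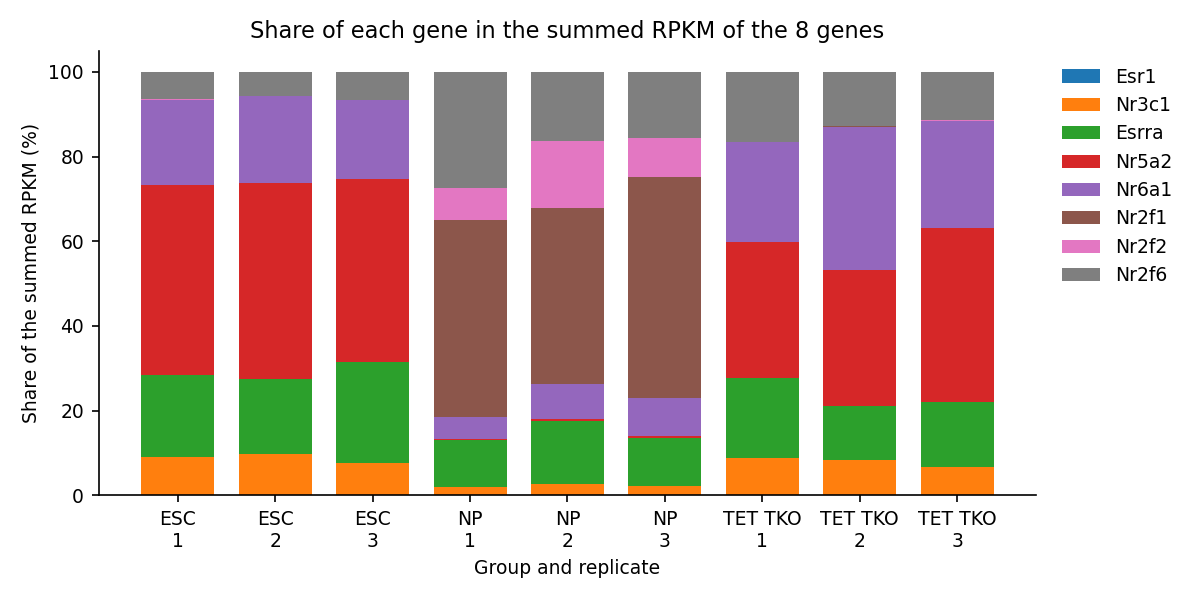
Share of each of the 8 genes in their summed RPKM over whole gene models (vertical axis, percent, stacked to 100%) in each library (horizontal axis, group and replicate). Nr5a2 is the largest part in ESCs, at 43.3% to 46.2%, and Nr2f1 the largest in NPs, at 41.5% to 52.2%.

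The comparison of TET TKO with ESCs asked whether these genes depend on the TET dioxygenases, within the limit that strain differs too. It shares the 3 ESC libraries with the comparison above, so its values are set beside the others only for reference. Of the 5 members tested, 0 were called by edgeR, with 3 at an unadjusted p under 0.05, and DESeq2 called 0 as well. The share of all genes under that unadjusted limit was not taken. Such counts, here and below, therefore have no background beside them and are not read as results. By DESeq2, Nr2f6 (adjusted p = 9.998e-05) and Nr5a2 (adjusted p = 0.0006315) passed the limit of 0.001 on p. They were not called because their change was under 3-fold. Over all 13939 genes tested, 2.14% were called, 0.847% higher and 1.29% lower. RPKM ranges did not overlap for 4 of the 5 members and for 51.8% of all genes tested. With the TET TKO counts thinned to the median ESC depth, 0 members and 293 genes were called, against 298 at full depth, and the member log2 fold changes ran from −0.66 (Esrra) to 0.94 (Nr2f6).

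Nr2f6 had the largest difference among the 5, at 7.06, 5.67 and 4.98 RPKM in TET TKO, all above the ESC libraries. Its mean was 2.00 times that of ESCs, with a log2 fold change of 0.88 ± 0.18 (SE, n = 3 per group, adjusted p = 0.009598). Counts of the overlapping Ocel1 are given above. Nr6a1 had 10.1, 14.9 and 11.03 RPKM, also above every ESC library, with a log2 fold change of 0.25 ± 0.16 (adjusted p = 0.2441).

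Nr5a2 had 13.8, 14.2 and 17.98 RPKM in TET TKO, all below the ESC libraries, with a log2 fold change of −0.58 ± 0.13 (SE, n = 3 per group, adjusted p = 0.01154). Esrra was at 7.97, 5.65 and 6.69 RPKM, again below every ESC library (−0.61 ± 0.18, adjusted p = 0.03147). Nr3c1, at 3.81, 3.70 and 2.97 RPKM, overlapped with ESCs (−0.37 ± 0.16, adjusted p = 0.1116).

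Nr2f1, Nr2f2 and Esr1 stayed under 1 RPKM in TET TKO and were not tested. Nr2f1 had 1, 8 and 9 counts and Nr2f2 9, 18 and 76. Thinned to the median ESC depth, Nr2f2 had 3, 4 and 14 counts, against 3, 2 and 5 in ESCs, so that the third TET TKO library carried most of the difference. The ratio of depth-scaled counts was 2.97 for Nr2f2 (exact 95% interval 1.55 to 6.38), 0.742 for Nr2f1 (0.296 to 2.10) and 0.288 for Esr1 (0.123 to 0.675), all for counting error only. In the fit without a filter on low values, adjusted p was 0.171 for Nr2f2, 0.760 for Nr2f1 and 0.140 for Esr1.

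The rest of the family gave a background for these 8 genes. Of 41 other nuclear receptor genes, 19 were tested in NPs against ESCs, with 3 higher, 5 lower and 11 not called, and a median log2 fold change of 0.15. Over all genes tested, the shares were 12.4% higher and 9.98% lower. Rarb, a retinoic acid receptor gene that is itself a target of retinoic acid, rose by 8.79 ± 0.37 on the log2 scale (adjusted p = 8.662e-07), from 0.0804 to 0.263 RPKM in ESCs to 55.6 to 95.5 in NPs. Esrrg, a relative of Esrra, rose by 5.42 ± 0.64 but stayed near 1 RPKM in NPs. Among the genes that fell, Esrrb, the estrogen-related receptor of the naive pluripotency network, had 149 to 165 RPKM in ESCs and 0.657 to 0.885 in NPs (−7.66 ± 0.16, adjusted p = 1.428e-07). Nr0b1 (DAX1), which lacks a typical DNA-binding domain, fell by 4.63 on the log2 scale (adjusted p = 2.991e-07).

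The 3 estrogen-related receptor genes therefore differed from one another, as Esrrb fell, Esrrg rose and Esrra was at 0.29. Rara, another retinoic acid receptor gene, was not called at 1.29 ± 0.18 (adjusted p = 0.0002867), because its fold change was under 3. Rxra, a common partner in heterodimers, was likewise at 1.19 ± 0.17 (adjusted p = 0.0004373). Rarg, also a retinoic acid receptor gene, went the other way and was called lower (−2.83 ± 0.37, adjusted p = 0.0002203). It had 41.7 to 74.2 RPKM in ESCs and 4.63 to 12.9 in NPs, so the retinoic acid receptor genes differed from one another too. In TET TKO, where 2.14% of all genes tested were called, 15 of the 41 were tested and 0 called by edgeR, with 5 at an unadjusted p under 0.05.

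**Figure D4:**
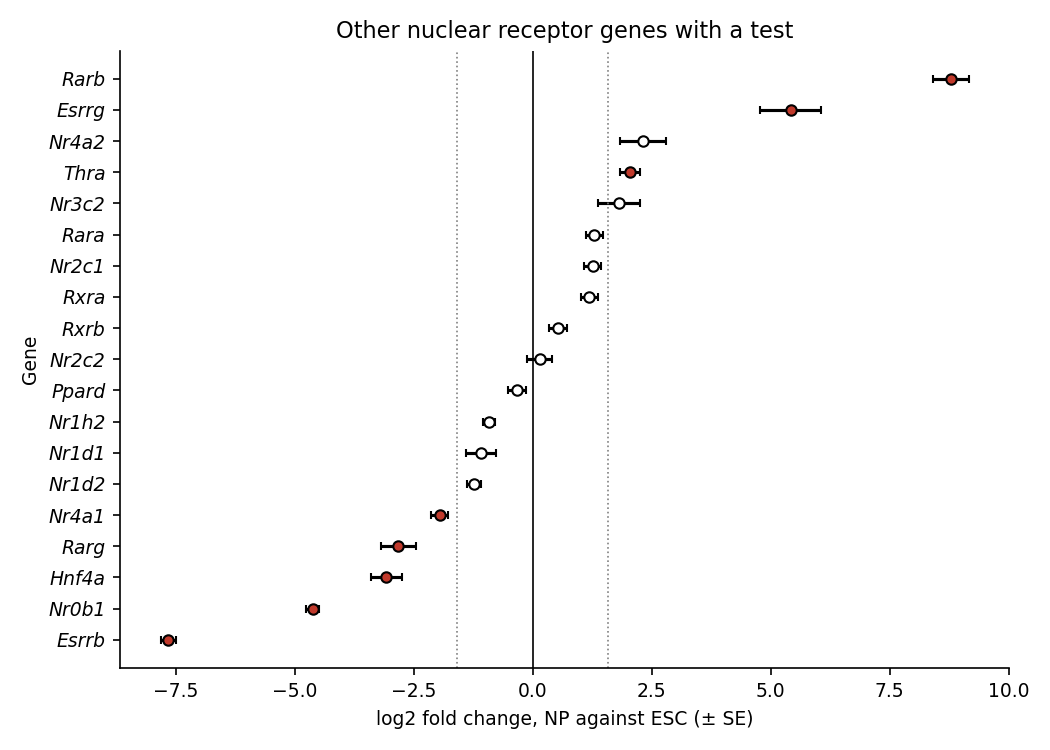
log2 fold change in NPs against ESCs, with standard errors, for the 19 of 41 other nuclear receptor genes that were tested, with filled points for the 8 called and dotted lines at a fold change of 3. Rarb, at 8.79, and Esrrb, at −7.66, lie at the ends.

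Genes for the proteins that work with the receptors are given beside the same shares over all genes tested, 12.4% higher and 9.98% lower in NPs. Of 15 coactivator genes, 14 were tested, with 0 higher and 2 lower in NPs. These were Kat2b, an acetyltransferase (−2.93 ± 0.13, adjusted p = 9.443e-07), and Ncoa3, a p160 coactivator that also supports pluripotency (−1.65 ± 0.15, adjusted p = 2.602e-05). Of 10 corepressor genes tested, 1 was higher, Nrip1 (2.31 ± 0.19, adjusted p = 2.102e-05), which encodes a corepressor of ligand-bound receptors. Of 10 chaperone genes of the steroid receptors, 1 was lower, Hsp90aa1 (−1.70 ± 0.15, adjusted p = 2.564e-05). Median log2 fold changes were −0.43 for the coactivators, 0.26 for the corepressors and −0.80 for the chaperones. In TET TKO, where 2.14% of all genes tested were called, edgeR called 0 of these 34 tested genes, with 3, 4 and 5 of the 3 lists at an unadjusted p under 0.05.

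**Figure D5:**
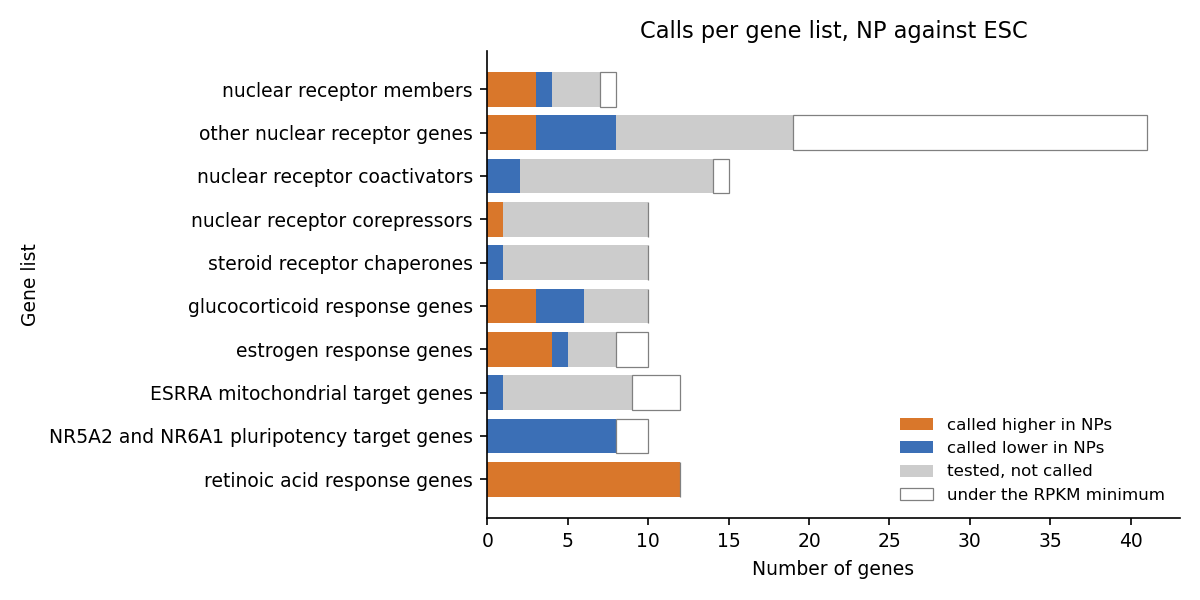
Number of genes in each list (horizontal axis) called higher (orange) or lower (blue) in NPs against ESCs, tested and not called (grey), or under the minimum of 1 RPKM (white). All 12 retinoic acid response genes are called higher, and 8 of the 10 genes listed as NR5A2 and NR6A1 targets lower.

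Known target genes of the receptors were counted next, again beside 12.4% higher and 9.98% lower over all genes tested. Of 10 genes listed as targets of NR5A2 or NR6A1, 8 were tested, without Gdf9 and Bmp15. All 8 were lower in NPs, with a median log2 fold change of −7.58. They include Tdgf1 (−10.41), Zfp42 (−8.58), Pou5f1 (−8.50) and Nanog (−8.26). These genes also mark pluripotent cells, so changes in the receptors and in that cell state cannot be told apart in this count. In TET TKO, edgeR called 1 of the 8 lower, Zfp42 (−2.70, adjusted p = 7.585e-05), a gene of naive ESCs, beside 1.29% of all genes tested. The median log2 fold change of the 8 there was −0.73, against 0.02 over all genes tested. By edgeR, 6 of the 8 had an unadjusted p under 0.05.

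Of 10 glucocorticoid response genes, 3 were higher and 3 lower in NPs, where 12.4% of all genes tested were higher and 9.98% lower. Higher were Zbtb16 (6.14), Tsc22d3 (3.79) and Errfi1 (1.94), and lower were Sgk1 (−5.50), Klf9 (−4.54) and Mt2 (−3.12), so the list moved in both directions while Nr3c1 was at −0.97. Of 10 estrogen response genes, 8 were tested, with 4 higher and 1 lower, although Esr1 was near 0 in each library. The 4 were Igfbp4 (5.89), Cxcl12 (5.47), Greb1 (3.95) and Nrip1 (2.31), and the lower gene was Tfap2c (−3.73). Of 12 mitochondrial target genes of ESRRA, a list that holds Esrra itself, 9 were tested and 1 was lower, Acadm (−2.06 ± 0.11, adjusted p = 2.156e-06), which encodes an enzyme of fatty acid oxidation. All 12 retinoic acid response genes were higher in NPs, with a median of 6.73, and Cyp26b1, an enzyme that breaks retinoic acid down, was at 10.68. In TET TKO, where 2.14% of all genes were called, edgeR called 0 genes of these 4 lists, with 4 of 9, 4 of 6, 2 of 9 and 1 of 4 tested genes at an unadjusted p under 0.05.

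As a description of likeness, log2(CPM + 1) of each member was correlated with 15504 genes over the 9 libraries, which fall into the 3 groups. The genes most like Nr2f1 were Neurog2, a proneural factor gene (Pearson r = 0.9999), and Gm15050 (0.9999), and 255 genes were over 0.99. For Nr2f2 they were Slc24a3 (0.998) and Robo2, an axon guidance receptor gene (0.998), and for Nr2f6 Rhno1 (0.995) and Map7d1 (0.994). Those for Nr5a2 were 6030458C11Rik (0.998) and Col17a1 (0.998). Nr6a1 was most like Ska1 (0.993) and Fam208b (0.988), Nr3c1 most like Exosc5 (0.986) and Rbfa (0.984), and Esrra most like Nphp4 (0.980) and Bmf (0.978). With values near 0 in 6 libraries and high in 3, an r near 1 mainly shows that both genes separate NPs from the rest.

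For the steroid receptors, the series also measured DNA methylation around their motifs, in a bacterial fragment inserted into the genome with the ER or GR motif intact (WT) or scrambled (Sc). Plasmids with the fragment were either methylated in vitro by the enzyme M.SssI before transfection (premethylated) or left untreated. In ESCs with the untreated fragment, mean methylation over CpGs was 71.4% (WT) and 19.7% (Sc) for ER, a difference of 51.8 points (95% interval 41.4 to 62.2). For GR it was 50.04% and 62.8% (−12.8 points, −31.3 to 5.69). In ESCs with the premethylated fragment, ER had 65.6% and 77.6% (−11.9 points, −24.1 to 0.255) and GR 32.4% and 54.5% (−22.1 points, −33.9 to −10.3). WT was lower at 17 of 24 CpGs for ER and 23 of 23 for GR, but CpGs on the same reads are not independent. TET TKO with the premethylated fragment had 95.04% and 92.4% for ER (2.67 points, −4.56 to 9.90) and 99.6% and 92.1% for GR (7.55 points, 1.47 to 13.6). WT was lower there at 17 of 24 CpGs for ER, against the sign of its mean, and at 1 of 23 for GR. The GR fragments had a median of 22 (WT) and 28 (Sc) reads per CpG. With so few reads near 100%, this interval is too narrow. In both NP pools, all fragments were between 85.8% and 92.9%. These intervals cover counting error only, since the replicates that the study pooled could not be told apart. The counts of a pool came in numbered sets, called runs here, and the labels do not say whether a number is a replicate. In ESCs, 1 run per value held both fragments. Within it, the differences were 26.1 points (ER) and 16.1 (GR) when untreated, so that GR turned in sign. When premethylated, the differences were −40.3 and −4.20. In TET TKO, over 2 runs, they were 8.71 and 4.66 points.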

How the data were processed

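RNA from 9 libraries (3 ESC, 3 NP, 3 TET TKO) was sequenced. Per the labels and the study's methods, the authors trimmed reads with Trimmomatic 0.38, aligned them with STAR 2.6.1b to GRCm38 and assigned them to Ensembl genes with featureCounts, without strand, although the library kit was stranded. The deposited values are raw read counts per gene. The number of columns that matched no sample was 0. For the ER and GR motifs, the authors deposited, per CpG and numbered run, read counts and methylated read counts from Bismark 0.20.0. What a run number stands for is not in the labels. In ESCs with untreated and NPs with premethylated fragments, the counts are shared with a further sample whose title names a Sanger sequencer. They were summed over the runs of each of 5 pools, and CpGs with at least 10 reads in both fragments were averaged. The 95% interval used the mean over CpGs of half-widths from the normal approximation to the binomial.

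NPs and TET TKO were each compared with ESCs in edgeR 4.0.16 (R 4.3.3), by its quasi-likelihood F-test with TMM factors, on genes with at least 1 RPKM in at least 1 library of the 2 groups, and p-values were adjusted over all genes tested. The SE of a log2 fold change is its size divided by the square root of F. DESeq2 1.42.0 was an alternative. RPKM used TMM-scaled library sizes of all 9 libraries and the gene lengths in the files, so a gene may pass the filter of 1 comparison at a value slightly under 1 here. On simulated counts with 200 changed genes, the test recovered 95.5% of them for NPs (14189 genes) and 95.0% for TET TKO (13299 genes), and called 0 unchanged genes. All changed genes were given the same change, well past 3-fold, and were drawn above a minimum of counts. Their spread followed the common trend with level. The recovery does not cover smaller changes, genes with few counts or genes with an unusual spread. Replicates of a group differed by more than sampling noise, the closest pair (ESC replicates 1 and 2) by a chi-square of 2.25 per degree of freedom. Genes named are the 8 members, up to 4 called genes of each list with the largest change, and the 2 genes most like each member. Rara, Rxra, Rarg, Hnf4a, Errfi1, Mt2 and the genes that overlap members were added after their values were seen. The limits for a call and for high expression follow the study's methods. The members and lists were chosen with earlier results of these data known. Other calculations used Python 3.11.15, numpy 2.4.6, pandas 2.3.3 and matplotlib 3.10.9. Alternatives were total counts without TMM, DESeq2, other filters, no limit on the fold, a fit of all 3 groups together, a block for the replicate number, each library left out and TET TKO counts thinned to the ESC depth. The study's text words its filter on RPKM differently, and the filter used here was an interpretation of it. Percentages of methylation and siRNA libraries that the authors deposited were not used here.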

Additional observations from a re-analysis of the deposited data

How the results depend on the processing

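Among NP-against-ESC fits, 3396 genes were called, with 5281 without a filter on low values, 2262 with at least 10 counts in every library, 5157 without a limit on the fold, and 2471 to 3384 with 1 library left out. Members called were 4, but 2 with at least 10 counts in every library, where Nr2f1 and Nr2f2 could not be tested, and 3 to 4 with 1 library left out, because Nr2f6 was lost without any 1 ESC library. Nr3c1 was called only without a limit on the fold. For TET TKO, 298 genes were called, with 910 by DESeq2, 1263 without a filter, 456 without a limit on the fold, and 50 to 294 with 1 library left out. Of these, 50, 58 and 70 were without ESC replicates 1, 2 and 3, and 92 and 165 without TET TKO replicates 1 and 2. Members called were 0 in each of these fits. Thinning TET TKO to the ESC depth gave 293 genes. No member tested changed sign in any alternative fit.

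With the replicate number as a block, 589 genes were called for TET TKO and 3359 for NPs, and the members called were again 0 and 4. Deviations of each library from its group mean, in log2(CPM + 1), were correlated between groups. They sum to 0 within a group, so correlations of both signs are forced. Deviations of same-numbered libraries correlated at −0.08, 0 and −0.189 for NPs and at −0.126, 0.45 and 0.27 for TET TKO. Not every library correlated best with its own number, and the numbers were not taken as pairs. The number of members over the limit for high expression was within 1.5 times under TMM-scaled counts with no division by length and under total counts without TMM, and with Nr2f6 divided by its unshared bases.

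For the receptor motifs, within-run differences, an alternative chosen after seeing the data, were 26.1 points for ER (51.8 over all runs) and 16.1 for GR (−12.8) in ESCs with untreated fragments. They were −40.3 for ER (−11.9) and −4.20 for GR (−22.1) in ESCs with premethylated fragments. With a minimum of 50 reads, ER was at 69.5 points in ESCs with untreated fragments, from 1 CpG, and at 24.1 in TET TKO, from 6 CpGs, against 2.67 from 24. With a minimum of 20 reads, ER in ESCs with premethylated fragments was at −0.49 from 6 CpGs. GR could not be compared in ESCs with untreated fragments at 20 or 50 reads, or in TET TKO at 50, nor ER in ESCs with premethylated fragments at 50. No run of NPs with premethylated fragments held 10 reads of both ER fragments. The cause of these shifts was not tested. Nr2f1, Nr2f2 and Esr1 are limited by depth in ESCs, where each had at most 7 counts in a library.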
